A study of Homo sapiens with 18 samples.

Results

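Basal gene expression was compared between macrophage-like THP-1 cells that carried human Siglec-14 (S14) and cells that carried an empty vector (EV), both kept in mock medium. Of the 18 libraries of the series, 6 belong to this comparison, 3 of each line, and every gene that passed an expression filter was tested, 17851 of the 60623 in the count table. THP-1 is an established human monocytic leukaemia line, which the phorbol ester PMA turns into adherent macrophage-like cells. Both lines received 100 nM PMA for 24 h before the mock medium. The remaining libraries, from a Siglec-5 (S5) line in mock medium and from all lines in 50% conditioned medium of SW620, a colorectal cancer line, for 48 h, entered the model of the spread between replicates. The time in mock medium is not stated apart from this. The labels do not say whether a line is 1 clone or a pool, which promoter drives the receptor, or whether libraries of a line came from cultures grown apart. The p-values rest on the spread among these libraries alone, and that spread may be technical.

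Siglec-14 is a sialic acid-binding receptor of myeloid cells. It has no signalling tail of its own and pairs with DAP12, the product of TYROBP, a membrane adaptor whose ITAM motif, once phosphorylated by Src-family kinases, recruits the kinase SYK and, through it, calcium, phosphoinositide and MAP kinase signalling. TREM2, several CD300 and SIRP proteins and other receptors share the same adaptor. In macrophages these receptors take part in phagocytosis, cytokine output and the fusion of cells into osteoclasts.

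The transgene was checked in every library first. SIGLEC14 (ENSG00000254415, chr19:51642553-51646801, minus strand, GRCh38) stood at 19.98, 20.2 and 13.0 CPM (counts per 1e6 library counts) in EV replicates 1 to 3 and 857, 926 and 554 in S14 (log2 fold change 5.46 ± 0.29, edgeR adjusted p = 9.23e-08). The lines did not overlap, and replicate 3 was the lowest of each. Here and below, ± after a log2 fold change of S14 over EV is its SE, and adjusted p-values are edgeR's over all genes tested. An exact two-sided permutation test over libraries gave p = 0.1, the smallest that 3 against 3 can give. SIGLEC5, which overlaps SIGLEC14 in the annotation and shares sequence with it, held 14 to 24 counts per library in EV and 0 to 11 in S14, so its level is uncertain (log2 fold change -1.94 ± 0.69, -1.34 without S14 1 and -3.48 without S14 3, adjusted p = 0.06). TYROBP, the adaptor, stood at 755, 796 and 741 CPM in EV and 611, 593 and 624 in S14 (-0.33 ± 0.14, adjusted p = 0.127). Its S14 libraries all lay below its EV libraries, without passing the threshold.

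Libraries held 19.66 to 25.59 M counts in EV and 21.01 to 22.57 M in S14. Replicate 3 stood apart in both lines. It differed from replicates 1 and 2 by a chi-square of 58.7 and 63.1 per degree of freedom in EV and 171 and 185 in S14, whereas replicates 1 and 2 differed by 3.84 and 6.13. Mitochondrially encoded mRNA made up 2.81%, 2.81% and 3.97% of counts in EV and 1.59%, 1.49% and 4.52% in S14. Results that move with replicate 3 are therefore given with a model that takes the replicate number as a block, or for single pairs of libraries. Monocyte and macrophage markers were present in both lines, 15 and 16 of 16 at 1 CPM or more, and their summed level was 8236 to 8958 CPM in EV and 6632 to 7899.7 in S14. In bulk RNA, fewer cells of a kind and less RNA per cell cannot be told apart.

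S14 cells differed from EV cells at 3575 of 17851 genes (20% of those tested; edgeR, adjusted p under 0.05). Of these 1976 (11.1%) were higher and 1599 (8.96%) lower. By at least 2-fold, 1127 genes (6.31%) were higher and 995 (5.57%) lower, and by at least 8-fold 253 (1.42%) and 155 (0.868%). With the replicate block 6672 genes (37.4%) were called, 3346 higher (18.7%) and 3326 lower (18.6%), and in replicates 1 and 2 alone 9921 of 17829 (55.6%). All 1976 and all 1599 genes were also called with the block, and 1952 (98.8%) and 1584 (99.1%) in replicates 1 and 2 alone. The CPM of the lines did not overlap at 3315 genes higher in S14 (18.6%) and 3176 lower (17.8%). Every one of the 3 same-numbered pairs of libraries moved the same way at 1937 of the higher genes (98.0%) and 1587 of the lower (99.2%). The called genes were found in these same libraries, so their agreement across pairs, with the block and in replicates 1 and 2 largely follows from the call. The count fell to 2264 without EV replicate 1, 2315 without S14 replicate 1 and 2318 without S14 replicate 2. With upper-quartile scaling the median log2 fold change of all genes was -0.12 in place of -0.02, and 44.3% of called genes were higher in place of 55.3%. Below, EV 1 stands for EV replicate 1. Counts of list and class members are to be read beside the 11.1% higher and 8.96% lower over all genes tested. Counts with the block are to be read beside 18.7% and 18.6%. Where leaving out 1 library ends a call or moves the fold by over 1.5 times, that library follows the estimate, and "lost without EV 1 or 2" means that leaving out either one ended the call. Among the genes below whose 6 library values are given, the ranges of the lines overlapped only at CSF1R, CXCR4, CDC20, TOP2A and MCM6. The largest changes were chosen among called genes without overlap, so for those genes this follows from the choice.

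**Figure D1:**
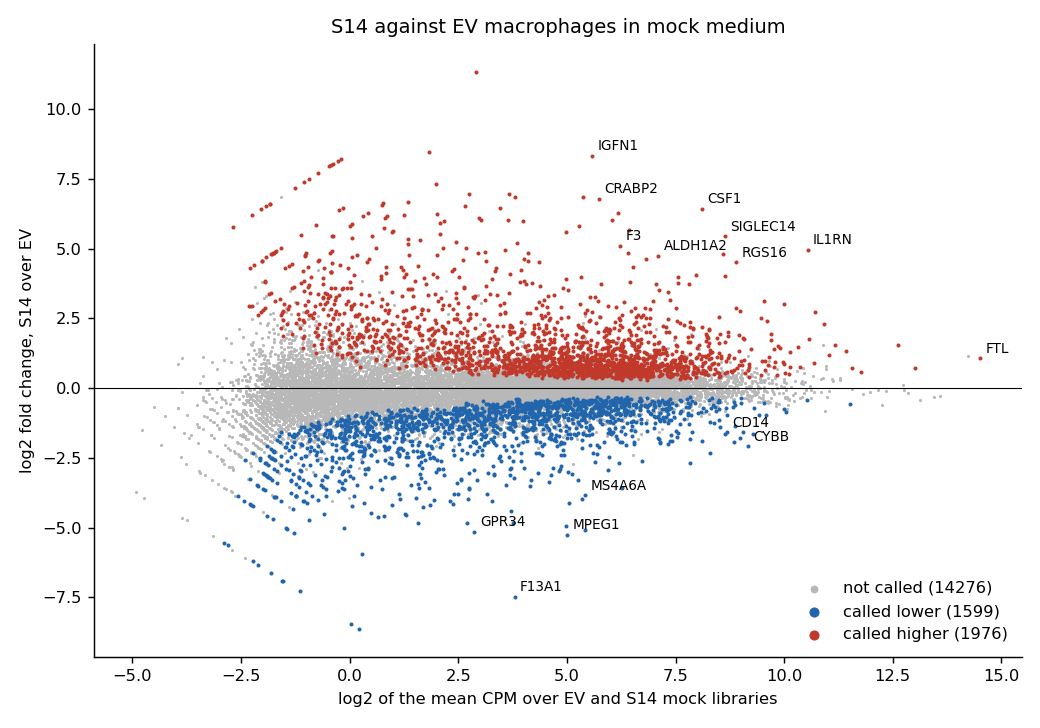
Log2 fold change of S14 over EV in mock medium (vertical axis) against the log2 of the mean CPM over the 6 libraries (horizontal axis) for the 17851 genes tested, each point 1 gene. The 1976 genes called higher and the 1599 called lower lie on both sides at every level, and FTL lies at the right end among the called genes.

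The share of genes called differed with abundance. Of 2439 genes with at least 100 CPM in the higher line, 22.1% were higher and 8.04% lower, against 12.2% and 9.40% of 7528 genes between 10 and 100 CPM, and 2.86% and 4.71% of 3037 genes under 1 CPM. The median standard error was 0.193 in the first of these classes and 0.632 in the last.

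The largest rises among genes at 10 CPM or more were in genes of very different kinds. IGFN1 (chr1:201190825-201228952), a sarcomere-associated immunoglobulin-domain gene, stood at 0.191, 0.371 and 0.304 CPM in EV and 83.8, 67.5 and 136 in S14 (8.34 ± 0.59, adjusted p = 7.19e-07). CRABP2 (chr1:156699606-156705816), which carries retinoic acid to its nuclear receptor, stood at 1.10, 0.975 and 0.798 CPM in EV and 78.8, 66.2 and 173 in S14 (6.79 ± 0.71, adjusted p = 1.59e-05). SSTR2 (chr17:73165012-73176633), a somatostatin receptor, stood at 0.238, 0.0464 and 0.418 CPM in EV and 30.2, 21.4 and 13.6 in S14 (6.45 ± 0.63, adjusted p = 8.17e-06, 7.23 without EV 3). In each of these the 3 S14 libraries lay far above the 3 EV libraries. MMP7 (chr11:102520508-102530753), the matrilysin that cuts matrix and membrane proteins, stood at 0.715, 0.928 and 3.65 CPM in EV and 87.3, 81.2 and 258 in S14 (6.30 ± 1.32, adjusted p = 0.00346, 7.45 without EV 3 and 5.54 without S14 3). TIMP4 (chr3:12153051-12159351), an inhibitor of such proteases, stood at 0.191, 0.325 and 0.152 CPM in EV and 19.7, 18.1 and 8.57 in S14 (6.10 ± 0.68, adjusted p = 2.47e-05). Within S14, replicate 3 was the highest library for IGFN1, CRABP2 and MMP7 and the lowest for SSTR2 and TIMP4. INHBA rose by 6.95 ± 0.87 (7.71 without EV 3), TRIM54 by 6.87 ± 0.97 (5.91 without S14 3), SDS by 6.85 ± 0.72 (5.52 without S14 3), LINC02244, a long intergenic RNA, by 6.03 ± 0.83 (7.46 without EV 2), and RPLP0P2, a ribosomal protein pseudogene whose reads cannot be told from those of its parent, by 6.52 ± 0.64 (5.89 without S14 3).

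The largest falls took genes of tissue macrophages and a few of other tissues. F13A1 (-7.48 ± 0.58), MPEG1 (-5.26 ± 0.46, -5.96 without S14 3), GPR34 (-5.16 ± 0.55, -6.52 without S14 3), C1QA (-5.09 ± 0.42) and CCR2 (-4.95 ± 0.73) fell the furthest among genes at 10 CPM or more. TRDN (chr6:123216339-123637093), the muscle calcium-release protein triadin, stood at 8.73, 9.38 and 19.5 CPM in EV and 0.195, 0.412 and 0.681 in S14 (-4.85 ± 0.57, adjusted p = 4.39e-05). KIF26B (chr1:245154985-245709431), a kinesin-like protein, stood at 36.0, 32.0 and 10.4 CPM in EV and 0.976, 1.29 and 0.487 in S14 (-4.83 ± 0.84, adjusted p = 0.000956). SELENOP (chr5:42799880-42887392), the secreted selenium carrier, stood at 26.1, 28.5 and 20.1 CPM in EV and 0.976, 1.24 and 1.31 in S14 (-4.40 ± 0.66, adjusted p = 0.000295). Every S14 library of these genes lay at or under 1.31 CPM. LRRC4, a synaptic adhesion protein, fell as well (-4.11 ± 0.44, -5.11 without S14 3). FCGBP, a mucus-associated protein that binds IgG Fc, had -4.05 ± 0.50 and VIPR1, a receptor of vasoactive intestinal peptide, -3.96 ± 0.83.

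By the CPM gained or lost, which is not corrected for transcript length, the subunits of ferritin, the iron store, came first. FTL (chr19:48965301-48966878) stood at 12911, 16062 and 16025 CPM in EV and 29454, 34728 and 30939 in S14 (1.08 ± 0.18, adjusted p = 0.000547). FTH1 (chr11:61959718-61967660) stood at 2611, 2868 and 4168 CPM in EV and 8132, 9080.2 and 10853 in S14 (1.54 ± 0.31, adjusted p = 0.00275). Both have many processed pseudogenes, so their counts may hold or lack shared reads. IL1RN, the interleukin-1 receptor antagonist, stood at 85.1, 93.9 and 97.0 CPM in EV and 3118, 2696 and 2849 in S14 (4.97 ± 0.33, adjusted p = 4.04e-07). CHI3L1, a chitinase-like glycoprotein of macrophages, rose by 0.72 ± 0.22 (lost without EV 1, 2 or 3 or S14 3), FN1, fibronectin, by 2.31 ± 0.65 (lost without EV 1, 2 or 3 or S14 1 or 2), the lysosomal protease CTSB by 1.34 ± 0.31 and lipoprotein lipase LPL by 1.53 ± 0.42 (lost without EV 3 or S14 1). On the other side TMSB4X, the actin-binding thymosin beta-4, had -0.56 ± 0.17 (lost without EV 1, 2 or 3 or S14 1 or 2), the translationally controlled TPT1 -0.86 ± 0.15, the peroxidase GPX1 -0.75 ± 0.18 (lost without S14 1), and BMP8B, which has a near-identical neighbour, -1.92 ± 0.40. ITGAL, the alpha chain of the integrin LFA-1, stood at 852, 829 and 671 CPM in EV and 239, 230.1 and 205 in S14 (-1.80 ± 0.22, adjusted p = 4.87e-05).

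**Figure D2:**
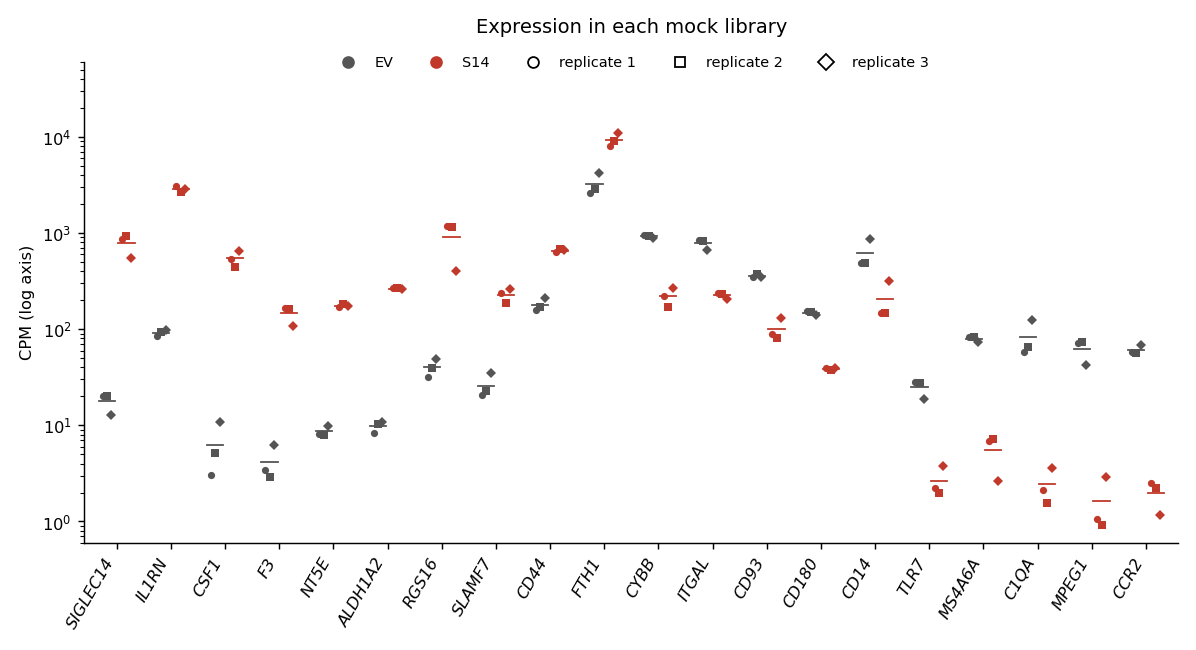
CPM in each mock library on a log axis for 20 genes, EV in grey and S14 in red, with the replicate number as the symbol and the mean as a line. The lines do not overlap at any of these genes, and S14 replicate 3 lies apart from replicates 1 and 2 at RGS16, CD14 and MS4A6A.

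Among 24 genes of Siglec-14 and its adaptor pathway, 7 were higher, counting SIGLEC14 itself, and 5 lower (median -0.18). Of the Src-family kinases that phosphorylate ITAM motifs, FGR and SRC rose and LYN did not pass the test. FGR stood at 84.7, 82.3 and 101 CPM in EV and 371, 359 and 426 in S14 (2.11 ± 0.31, adjusted p = 0.000228). SRC stood at 4.10, 5.62 and 5.05 CPM in EV and 28.7, 27.1 and 21.4 in S14 (2.38 ± 0.37, adjusted p = 0.000412), with no overlap between lines. VAV3, a guanine nucleotide exchange factor (0.84 ± 0.17), the adaptor LCP2 (0.94 ± 0.23, lost without S14 2), MALT1 (0.81 ± 0.28, lost without EV 1, 2 or 3 or S14 1 or 2) and the phosphatase PTPN6 (0.38 ± 0.12, lost without EV 1, 2 or 3 or S14 1 or 2) had smaller rises. PIK3CD, the leukocyte catalytic subunit of PI3-kinase, had -1.22 ± 0.19, INPP5D, the phosphatase SHIP1 that acts on its product, -0.88 ± 0.19, the kinase SYK -0.72 ± 0.20 (lost without EV 1 or 2 or S14 3) and the adaptor CARD9 -0.67 ± 0.17 (lost without EV 1 or S14 1 or 2). FCER1G, the Fc receptor gamma chain and a second ITAM adaptor of these cells, stood at 713, 737 and 925 CPM in EV and 167, 154 and 479 in S14 (-1.57 ± 0.33, adjusted p = 0.00366, -2.31 without S14 3).

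Of 30 further activating or inhibitory receptors, 4 were higher and 8 lower. SLAMF7, a homotypic receptor of the SLAM family, stood at 20.6, 22.6 and 34.6 CPM in EV and 237, 186 and 262 in S14 (3.14 ± 0.28, adjusted p = 4.57e-06), and CD300LB, which pairs with DAP12, rose by 2.10 ± 0.28. PILRA, an inhibitory receptor, stood at 31.6, 34.1 and 33.3 CPM in EV and 6.59, 5.92 and 13.7 in S14 (-1.92 ± 0.28, adjusted p = 0.000211). CD33, an inhibitory Siglec, stood at 182, 189.7 and 179 CPM in EV and 83.3, 73.7 and 116 in S14 (-1.01 ± 0.14, adjusted p = 0.000127). TREM2, a DAP12 partner of phagocytes, stood at 992, 941 and 787 CPM in EV and 437, 417 and 547 in S14 (-0.96 ± 0.23, adjusted p = 0.00928). None of these overlapped between lines. In the LILR family, several of whose members bind MHC class I, none of 9 was higher by edgeR (1 at an unadjusted p under 0.05, 0 by DESeq2) and 3 were lower, with LILRB2 at -2.92 ± 0.55 and LILRA2 at -2.07 ± 0.60 (lost without EV 1 or 3 or S14 1 or 2). The family's pair medians were -1.32, -1.32 and 0.17, and with the block 3 were higher and 4 lower.

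Complement components moved both ways, with 1 of 15 higher and 6 lower (median -0.68). The chains of C1q, which opens the classical pathway, were low. C1QA stood at 58.4, 65.9 and 125 CPM in EV and 2.15, 1.54 and 3.60 in S14 (-5.09 ± 0.42, adjusted p = 2.04e-06), C1QC at 50.1, 61.4 and 96.2 CPM in EV and 8.30, 7.83 and 5.01 in S14 (-3.30 ± 0.37, adjusted p = 3.01e-05) and C1QB was lower too (-3.81 ± 0.46). C2 (-1.24 ± 0.25), C5 (-2.06 ± 0.46, -3.07 without S14 3) and CFP, properdin (-1.83 ± 0.35), were also lower. C3, the protein on which all pathways converge, went the other way, at 193, 199 and 249.96 CPM in EV and 501, 543 and 485 in S14 (1.25 ± 0.17, adjusted p = 0.000115). Among 14 receptors and regulators, CD93 stood at 347, 374 and 347 CPM in EV and 88.3, 80.2 and 130.5 in S14 (-1.84 ± 0.17, adjusted p = 7.09e-06), VSIG4, the complement receptor of resident macrophages, had -2.60 ± 0.38 (-3.28 without S14 3) and CR1 -1.48 ± 0.38 (lost without S14 1 or 2). The membrane inhibitors CD55 (1.01 ± 0.33, 0.42 without S14 3, lost without EV 1 or 2 or S14 3) and CD59 (1.19 ± 0.39, lost without EV 1 or 2 or S14 2 or 3) rose, with their highest level in S14 3.

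Fc receptors, which bind antibody, showed 2 of 13 higher and 5 lower. FCGR1A, the high-affinity IgG receptor, stood at 328, 300.0 and 232 CPM in EV and 89.1, 78.5 and 85.5 in S14 (-1.77 ± 0.27, adjusted p = 0.000384). FCGR1BP, a close copy of it, had -3.09 ± 0.37, and how reads were split between the copies is not known. FCGRT, which recycles IgG, had -0.96 ± 0.18. FCGR3A, a low-affinity receptor with a near-identical paralogue, went up, at 19.3, 26.8 and 19.5 CPM in EV and 171, 152 and 54.5 in S14 (2.52 ± 0.50, adjusted p = 0.0022). Of 17 C-type lectins, which bind glycans, 5 were lower (median -0.71; 8 with the block) and none was higher by edgeR (1 at an unadjusted p under 0.05, 0 by DESeq2; 1 with the block). They were CD302 (-1.77 ± 0.22), CLEC12A (-2.21 ± 0.36), CD209 (-1.46 ± 0.24), CLEC12B (-2.40 ± 0.51) and the mannose receptor MRC1 (-2.10 ± 0.50).

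The NADPH oxidase of phagocytes, which makes superoxide, did not move as a unit. CYBB, its catalytic gp91phox subunit (chrX:37780011-37813461), stood at 959, 938 and 890.1 CPM in EV and 219, 171 and 268 in S14 (-2.08 ± 0.17, adjusted p = 2.25e-06). NCF4, its p40phox subunit, stood at 231, 240.4 and 204 CPM in EV and 53.6, 55.1 and 63.7 in S14 (-1.97 ± 0.18, adjusted p = 4.57e-06). HVCN1, the proton channel that balances its charge, stood at 31.9, 35.0 and 30.7 CPM in EV and 6.39, 6.74 and 6.08 in S14 (-2.34 ± 0.37, adjusted p = 0.000406). RAC2, the GTPase that activates the complex, went the other way (0.72 ± 0.15). In these genes no library of one line fell within the range of the other. Among 25 scavenger and efferocytosis genes 4 were higher and 6 lower, including GAS6, a bridge to dying cells (-3.02 ± 0.53), STAB1 (-2.34 ± 0.42, -2.99 without S14 3) and MARCO (-2.86 ± 0.89, -1.51 without EV 3, lost without EV 3 or S14 1, 2 or 3) among the falls and SCARB2 (0.85 ± 0.18) and HAVCR1 (2.89 ± 0.63) among the rises.

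Sensors of microbes gave 4 higher and 8 lower among 25 Toll-like receptor genes, and the same counts among 25 cytosolic sensors and inflammasome genes. The endosomal receptors of single-stranded RNA fell. TLR7 stood at 28.0, 27.7 and 18.7 CPM in EV and 2.25, 1.96 and 3.80 in S14 (-3.21 ± 0.48, adjusted p = 0.000297). TLR8 stood at 20.3, 22.7 and 24.9 CPM in EV and 2.98, 2.68 and 3.41 in S14 (-2.90 ± 0.37, adjusted p = 7.76e-05). CD180, a relative of the lipopolysaccharide receptor, stood at 155, 151 and 140.0 CPM in EV and 39.4, 37.2 and 39.2 in S14 (-1.95 ± 0.12, adjusted p = 2.81e-07), and LY86, its partner, had -1.64 ± 0.36. The adaptor TICAM1 (0.90 ± 0.13) and the kinase IRAK2 (2.14 ± 0.49) rose. CASP1, the inflammasome protease, stood at 66.4, 69.1 and 68.7 CPM in EV and 25.8, 26.3 and 26.3 in S14 (-1.38 ± 0.13, adjusted p = 8.02e-06). STING1, the adaptor of cytosolic DNA sensing, stood at 107, 95.5 and 97.4 CPM in EV and 31.9, 30.5 and 37.4 in S14 (-1.59 ± 0.24, adjusted p = 0.00033). The flagellin sensor component NAIP (-2.48 ± 0.44), CASP5 (-2.87 ± 0.59) and the adaptor PYCARD (-0.93 ± 0.26, lost without EV 1 or 2 or S14 1 or 2) were lower. RIPK2, the kinase of NOD receptors, stood at 10.8, 8.12 and 12.5 CPM in EV and 28.9, 29.9 and 26.3 in S14 (1.43 ± 0.20, adjusted p = 0.000179), and AIM2, a DNA sensor, had 1.65 ± 0.51 (0.83 without S14 3, lost without EV 1 or 2 or S14 3).

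Antiviral effectors of the OAS, IFIT, IFI and IFITM names, most of which interferons induce, were higher in 12 of 22 cases (median 1.28) and none was lower by edgeR (2 at an unadjusted p under 0.05, 1 by DESeq2). IFITM10, chosen by its name and not known as interferon-induced, rose by 3.60 ± 0.55, OASL by 3.24 ± 0.52, IFIT3 by 2.21 ± 0.25 and IFI44L by 2.66 ± 0.62. Related classes showed no such rise. Of 6 guanylate-binding proteins none was called by edgeR (0 at an unadjusted p under 0.05, 0 by DESeq2; 1 lower with the block; median -0.42). Of 7 APOBEC3 and SAMD9 antiviral genes 1 was higher and 1 lower (median -0.34). The interferon-gamma receptor chain IFNGR1 fell, at 1094, 1000.4 and 727 CPM in EV and 311, 326 and 266 in S14 (-1.64 ± 0.30, adjusted p = 0.00124), and JAK2, a kinase it uses, had -1.01 ± 0.16. IRF1 rose by 0.54 ± 0.15 (lost without EV 1 or 2 or S14 1) and USP18 by 0.78 ± 0.23 (lost without EV 1, 2 or 3 or S14 2 or 3), while IRF5 had -0.45 ± 0.12 (lost without EV 1 or 2). Promoters of 16 of these OAS to IFITM genes were found in RefSeq, and 62.5% held, on either strand, the letters GAAA, 2 bases of any kind and GAAA again, a core of the interferon-stimulated response element, against 3.03% of the 11936 promoters of tested genes. That share covers the named genes whether or not they moved, so it says nothing of this contrast. The letters were in 4.14% of promoters of genes called higher and 2.21% of those called lower. Among genes higher by at least 8-fold the share was 1.22%. The promoters of IFIT3 (chr10:89327747-89328046, plus strand) and IFI44L (chr1:78620198-78620497, plus strand), from 250 bases before to 50 after the start in RefSeq on GRCh38.p14, are shown with these letters or their reverse complement in capitals, as both genes rose and both hold 2 matches.
IFIT3: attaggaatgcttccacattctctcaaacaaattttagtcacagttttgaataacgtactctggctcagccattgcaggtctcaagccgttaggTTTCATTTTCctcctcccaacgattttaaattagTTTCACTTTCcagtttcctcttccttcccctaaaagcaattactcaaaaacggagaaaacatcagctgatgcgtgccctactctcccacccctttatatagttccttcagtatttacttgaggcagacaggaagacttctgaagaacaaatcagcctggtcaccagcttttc
IFI44L: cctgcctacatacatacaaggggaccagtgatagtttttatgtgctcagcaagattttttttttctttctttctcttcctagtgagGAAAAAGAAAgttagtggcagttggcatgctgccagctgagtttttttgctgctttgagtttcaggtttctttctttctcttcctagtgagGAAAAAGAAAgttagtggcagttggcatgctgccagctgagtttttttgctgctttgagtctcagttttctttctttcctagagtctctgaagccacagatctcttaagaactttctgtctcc
IFIT3 stood at 4.25, 4.64 and 4.79 CPM in EV and 20.4, 16.4 and 26.4 in S14, and IFI44L at 2.003, 1.11 and 3.002 CPM in EV and 20.9, 13.2 and 4.87 in S14, with S14 3 the lowest of its line in the second.

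Resident macrophage and microglia-type genes were lower in 17 of 27 cases (median -2.34; 19 with the block), and none was higher by edgeR (1 at an unadjusted p under 0.05, 0 by DESeq2; 1 with the block). Their medians in the same-numbered pairs were -2.58, -2.96 and -1.68. CX3CR1, the fractalkine receptor, stood at 196, 175 and 56.2 CPM in EV and 16.4, 14.2 and 5.06 in S14 (-3.58 ± 0.77, adjusted p = 0.00404). MS4A6A, a membrane protein of these cells, stood at 83.8, 82.1 and 73.1 CPM in EV and 6.83, 7.26 and 2.63 in S14 (-3.84 ± 0.53, adjusted p = 0.000142), and its relatives MS4A4A and MS4A4E had -3.56 ± 0.41 and -4.27 ± 0.52 (-4.88 without S14 1), so that 3 of 6 tested MS4A genes were lower. AIF1, a cytoskeletal protein of macrophages and microglia, stood at 210.4, 229 and 335 CPM in EV and 78.9, 70.3 and 92.3 in S14 (-1.68 ± 0.18, adjusted p = 1.47e-05). The purinergic receptor P2RY12 had -3.29 ± 1.03 (lost without EV 1 or 2 or S14 1, 2 or 3), FOLR2 -4.20 ± 0.34, and LYVE1, a hyaluronan receptor, was not counted in any S14 library, which puts it at least 13.7-fold lower than its 2.04 ± 0.377 CPM (SD, n = 3) in EV when 3 counts per library are taken as the limit. All EV libraries of these genes lay above all S14 libraries.

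Of 16 general monocyte and macrophage markers 7 were lower and none was higher by edgeR (1 at an unadjusted p under 0.05, 1 by DESeq2; median -0.67). CD14, the lipopolysaccharide co-receptor, stood at 483, 489.6 and 874 CPM in EV and 147, 149 and 321 in S14 (-1.58 ± 0.33, adjusted p = 0.00318). LYZ, lysozyme, stood at 424, 455 and 692 CPM in EV and 108, 117 and 88.5 in S14 (-2.32 ± 0.62, adjusted p = 0.0147, lost without S14 1). CSF1R, the receptor of CSF1, stood at 1895, 1939 and 1186 CPM in EV and 2511, 2607 and 1289 in S14 and did not pass the test (0.35 ± 0.31, adjusted p = 0.466). Genes of antigen presentation and of dendritic cells were split. CD1D, which presents lipids, had -2.33 ± 0.29, HLA-DMB -1.75 ± 0.54 (lost without EV 2 or 3 or S14 1, 2 or 3), CD86 -1.55 ± 0.39 (-2.14 without S14 3, lost without S14 1 or 2) and FLT3 -1.53 ± 0.34, while CD83 (1.87 ± 0.51, lost without EV 1 or 3 or S14 2) and CD40 (1.04 ± 0.21) were higher.

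Chemokine ligands were higher in 7 of 19 cases (median 1.84; 13 with the block), and none was lower by edgeR (1 at an unadjusted p under 0.05, 1 by DESeq2; 1 with the block). CCL5, which draws T cells and monocytes, stood at 175, 181 and 162 CPM in EV and 355, 371 and 424 in S14 (1.15 ± 0.23, adjusted p = 0.00236). CCL20, the ligand of CCR6, stood at 1.05, 2.18 and 10.6 CPM in EV and 30.02, 36.9 and 101 in S14 (3.58 ± 0.84, adjusted p = 0.00733, 5.13 without EV 3 and 2.84 without S14 3). CXCL8, which draws neutrophils, stood at 10.3, 18.0 and 72.3 CPM in EV and 164, 371 and 356 in S14 (3.14 ± 0.80, adjusted p = 0.0115, 4.42 without EV 3, lost without EV 1 or 2). EV replicate 3 was far above the other EV libraries in CCL20 and CXCL8 and still below every S14 library. CCL3L3, a copy of CCL3 whose reads are shared with it, had 2.51 ± 0.39, CCL3 1.76 ± 0.57 (lost without EV 1 or 2 or S14 1 or 2), CXCL3 2.79 ± 0.80 (4.06 without EV 3, lost without EV 1 or 2 or S14 2) and CXCL16 2.04 ± 0.61 (lost without EV 1, 2 or 3 or S14 1 or 2).

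Receptors of chemoattractants moved both ways, with 6 of 23 higher and 12 lower, the same counts with the block. CCR2, the receptor by which monocytes leave the marrow, stood at 58.4, 56.1 and 68.8 CPM in EV and 2.54, 2.21 and 1.17 in S14 (-4.95 ± 0.73, adjusted p = 0.000258). CXCR2, a receptor of CXCL8, stood at 20.03, 18.3 and 17.9 CPM in EV and 2.73, 2.37 and 5.31 in S14 (-2.43 ± 0.32, adjusted p = 9.76e-05). The formyl peptide receptor FPR1 (-2.26 ± 0.35), CMKLR1 (-2.45 ± 0.82, -1.84 without EV 2, lost without EV 1 or 2 or S14 1, 2 or 3) and the oxysterol receptor GPR183 (-1.62 ± 0.24) were lower as well. So was S1PR1, by which lymphocytes leave lymph nodes (-3.78 ± 0.63, -3.0 without EV 3 and -4.52 without S14 3). Among the rises, CCR7, which guides cells into lymph nodes, stood at 0.238, 0.0928 and 0.0760 CPM in EV and 12.0, 9.68 and 4.77 in S14 (6.00 ± 0.68, adjusted p = 2.93e-05, 6.64 without EV 1). CXCR5, which guides cells into follicles, stood at 1.86, 3.16 and 2.58 CPM in EV and 38.0, 31.8 and 33.3 in S14 (3.76 ± 0.49, adjusted p = 8.92e-05). CXCR4 stood at 38.3, 38.8 and 45.5 CPM in EV and 189.7, 223 and 45.3 in S14, with S14 3 inside the EV range (1.90 ± 0.49, adjusted p = 0.0117, lost without S14 2), and S1PR3 rose by 2.16 ± 0.49.

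Interleukins and haematopoietic growth factors were higher in 9 of 22 cases and lower in 2 (median 1.45). CSF1, the growth factor of macrophages, stood at 3.05, 5.11 and 10.8 CPM in EV and 543, 446 and 653 in S14 (6.43 ± 0.63, adjusted p = 8.66e-06, 7.09 without EV 3). The IL-6 family members OSM (1.72 ± 0.40) and CLCF1 (2.98 ± 0.53), and IL15 (2.20 ± 0.61, lost without EV 2 or 3 or S14 2) were higher. IL16 stood at 42.2, 39.96 and 24.6 CPM in EV and 7.86, 7.67 and 10.9 in S14 (-2.02 ± 0.33, adjusted p = 0.000574), and IL18BP, a decoy for IL-18, had -0.80 ± 0.18. Of 34 cytokine receptors 5 were higher and 8 lower. IL1R1 rose by 2.04 ± 0.39, its decoy IL1R2 by 3.04 ± 0.63 (2.41 without S14 2) and IFNLR1 by 3.59 ± 0.77 (4.18 without EV 3). The receptor chains CSF2RA (-2.52 ± 0.43) and IL12RB1 (-1.53 ± 0.25) fell.

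In the TNF superfamily, 3 of 12 ligands were higher and 2 lower, and 5 of 19 receptors were higher and 1 lower. TNFSF14 (LIGHT) stood at 24.9, 26.1 and 17.1 CPM in EV and 275, 237 and 260.1 in S14 (3.50 ± 0.24, adjusted p = 4.22e-07). TNFSF15 (TL1A) rose by 2.37 ± 0.53 and TNFSF9, the ligand of 4-1BB, by 1.79 ± 0.20, while TNFSF13 (APRIL) had -1.21 ± 0.25 and LTB -1.04 ± 0.29 (lost without EV 2 or 3 or S14 1 or 2). The death receptor TNFRSF21 stood at 28.3, 31.1 and 35.5 CPM in EV and 198, 171 and 117 in S14 (2.36 ± 0.18, adjusted p = 1.22e-06). TNFRSF12A, the receptor of TWEAK, stood at 2.53, 3.25 and 3.46 CPM in EV and 28.8, 27.7 and 60.1 in S14 (3.65 ± 0.58, adjusted p = 0.000472). The TRAIL receptors TNFRSF10A (2.03 ± 0.20) and the decoy TNFRSF10D (1.83 ± 0.24) rose too, and TNFRSF1A, the main TNF receptor, had -0.54 ± 0.10. In these 4 rising receptors every S14 library lay above every EV library.

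Genes of TGF-beta and activin signalling were higher in 17 of 42 cases and lower in 3 (median 0.29). Among ligands, GDF15, a stress-induced member, stood at 12.8, 14.2 and 52.7 CPM in EV and 519, 353 and 1376 in S14 (4.82 ± 0.71, adjusted p = 0.000257, 5.82 without EV 3 and 4.03 without S14 3). TGFB1 stood at 125, 129.5 and 129.7 CPM in EV and 211, 209 and 277 in S14 (0.86 ± 0.17, adjusted p = 0.00216). INHBA, the activin A subunit, stood at 0, 0.232 and 0.342 CPM in EV and 32.2, 34.3 and 9.44 in S14, with the lowest S14 value in replicate 3. BMP6 had 2.94 ± 0.74 (2.25 without S14 3, lost without EV 2). Secreted and intracellular inhibitors of the pathway rose as well. GREM1, a BMP antagonist, had 6.25 ± 1.11 (10.41 without EV 3), the pseudoreceptor BAMBI 2.84 ± 0.57 (3.57 without EV 3), and the inhibitory SMAD7 stood at 19.7, 18.6 and 23.6 CPM in EV and 74.5, 68.2 and 52.1 in S14 (1.65 ± 0.20, adjusted p = 4.39e-05). SMAD1, which carries BMP signals, was higher at under 3 CPM (2.65 ± 0.59, 2.03 without S14 3). The receptors TGFBR1 (-0.75 ± 0.22, lost without EV 1 or 2 or S14 1 or 2) and TGFBR2 (-0.89 ± 0.25, lost without EV 1 or 2 or S14 1 or 2) were lower.

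Growth factors outside that family gave 5 of 25 higher and 4 lower. VEGFC had 2.50 ± 0.44, VEGFA 1.93 ± 0.53 (lost without EV 3 or S14 1 or 2), adrenomedullin (ADM) 2.89 ± 0.60, ANGPTL4 5.63 ± 0.88 (7.21 without EV 2) and the EGF receptor ligand AREG 3.54 ± 0.84 (2.05 without S14 3). HGF (-2.41 ± 0.31), PDGFD (-3.24 ± 0.64) and endothelin (EDN1, -3.41 ± 0.49) were lower. IGF1, at 0.859, 0.835 and 0.722 CPM in EV, held 1 count in S14 replicate 3 and none in replicates 1 and 2 (adjusted p = 0.00127). Of 23 Notch genes 6 were higher and 3 lower. HES2, a transcriptional repressor, stood at 0, 0 and 0.0380 CPM in EV and 6.69, 6.38 and 8.23 in S14 (adjusted p = 8.32e-06). HES1 had 2.04 ± 0.51 (lost without EV 1), NOTCH2 0.97 ± 0.24 (lost without S14 2), NOTCH3 2.31 ± 0.62 (lost without EV 1), and the ligand DLL4 -1.99 ± 0.60 (-1.13 without EV 3 and -2.77 without S14 3, lost without EV 3 or S14 1 or 2). Of 32 Wnt genes 1 was higher, WNT11, which held 3 counts over EV (lost without EV 1 or 3 or S14 1 or 2), and 4 lower, with LGR4 at -1.35 ± 0.18, FZD5 at -0.66 ± 0.20 (lost without EV 1 or 3 or S14 1 or 2), SFRP1 at -1.50 ± 0.38 (lost without S14 2) and WLS at -0.95 ± 0.32 (lost without EV 1 or 2 or S14 1 or 2).

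Among the 56 lists, the highest share of rises was in MAP kinase phosphatases and ERK feedback genes, which MAP kinase activity induces and whose products damp it. The lists were written with earlier results of these data known, so this rank is no test of the pathway. Of 27 members 18 were higher and 1 lower (median 1.79; 20 and 1 with the block; pair medians 1.76, 1.44 and 1.59). DUSP5, a nuclear ERK phosphatase, stood at 4.44, 5.11 and 3.69 CPM in EV and 36.8, 33.2 and 49.1 in S14 (3.17 ± 0.38, adjusted p = 4.48e-05). DUSP10, which acts on p38 and JNK, stood at 35.1, 35.2 and 42.2 CPM in EV and 179, 157 and 81.3 in S14 (1.89 ± 0.24, adjusted p = 8.86e-05). RGS16, which switches off G protein subunits, stood at 31.7, 39.0 and 49.5 CPM in EV and 1173, 1168 and 402 in S14 (4.51 ± 0.54, adjusted p = 4.97e-05). RGS1 stood at 188, 219 and 265 CPM in EV and 2402, 2292 and 798 in S14 (3.03 ± 0.63, adjusted p = 0.00308). In DUSP10, RGS16 and RGS1 S14 replicate 3 was the lowest of its line and still above EV. DUSP1 rose by 4.63 ± 0.91, DUSP4 by 1.22 ± 0.28, DUSP14 by 1.44 ± 0.21, RGS2 by 2.02 ± 0.66 (lost without EV 1, 2 or 3 or S14 1 or 2) and IER3 by 2.75 ± 0.58. Inhibitors of the Sprouty and Spred families went with them, SPRY1 at 4.09 ± 0.73 (5.01 without EV 3 and 3.42 without S14 3), SPRY4 at 2.51 ± 0.47 and SPRED3 at 2.79 ± 0.56. ETV5, an ETS factor, was the lower one, at 153, 161 and 203 CPM in EV and 92.3, 87.6 and 78.8 in S14 (-0.999 ± 0.15, adjusted p = 0.000307). In the same family as RGS1 and RGS16, RGS18 fell (-3.80 ± 0.39, -4.39 without S14 3).

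Transcription factors of myeloid cells gave 11 of 50 higher and 7 lower. CEBPB, a factor of inflammatory and emergency responses, stood at 20.8, 23.4 and 40.5 CPM in EV and 163, 153 and 182 in S14 (2.55 ± 0.32, adjusted p = 6.16e-05). BHLHE40 stood at 33.9, 33.0 and 21.4 CPM in EV and 247, 253 and 129.7 in S14 (2.84 ± 0.43, adjusted p = 0.000321). ATF3, a stress-induced factor, stood at 46.6, 61.1 and 29.4 CPM in EV and 988, 889.7 and 369 in S14 (4.03 ± 0.69, adjusted p = 0.000847). EGR2 (3.46 ± 0.82), MAFF (2.16 ± 0.50), MAFK (1.11 ± 0.19), KLF10 (2.02 ± 0.55, lost without EV 1 or 3 or S14 1 or 2) and the orphan nuclear receptor NR4A3 (5.58 ± 1.15) were higher. NR1H3, the oxysterol receptor LXR-alpha, stood at 58.5, 56.8 and 61.0 CPM in EV and 298, 322 and 319 in S14 (2.41 ± 0.24, adjusted p = 8.17e-06). MYB, the progenitor factor, stood at 66.9, 52.8 and 109 CPM in EV and 3.51, 3.66 and 7.25 in S14 (-3.99 ± 0.66, adjusted p = 0.000639), and GFI1 (-1.87 ± 0.56, lost without EV 1 or 3 or S14 1 or 2) and HHEX (-1.20 ± 0.26) were lower. Among 21 AP-1 and ATF factors 6 were higher and 3 lower.

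AP-1 dimers bind the letters TGANTCA. The 300-base RefSeq promoters held them in 4.74% of 11936 tested genes, 7.41% of the 1498 called higher with a promoter and 5.51% of the 1088 called lower. The shares were 14.6% of 164 genes higher by at least 8-fold and 10.7% of 75 genes lower by at least 8-fold. A match is only a run of letters. The promoters of MMP7 (chr11:102530698-102530997, minus strand), ANKRD1 (chr10:90921038-90921337, minus strand) and IL1RN (chr2:113117721-113118020, plus strand) are shown with the TGANTCA match in capitals, because each rose by over 8-fold and holds 1.
MMP7: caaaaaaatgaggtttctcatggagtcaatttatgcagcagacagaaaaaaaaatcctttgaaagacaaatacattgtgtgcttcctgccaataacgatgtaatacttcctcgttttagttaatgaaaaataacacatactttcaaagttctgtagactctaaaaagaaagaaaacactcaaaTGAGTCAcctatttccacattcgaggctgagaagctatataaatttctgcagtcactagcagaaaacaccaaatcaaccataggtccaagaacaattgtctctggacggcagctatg
ANKRD1: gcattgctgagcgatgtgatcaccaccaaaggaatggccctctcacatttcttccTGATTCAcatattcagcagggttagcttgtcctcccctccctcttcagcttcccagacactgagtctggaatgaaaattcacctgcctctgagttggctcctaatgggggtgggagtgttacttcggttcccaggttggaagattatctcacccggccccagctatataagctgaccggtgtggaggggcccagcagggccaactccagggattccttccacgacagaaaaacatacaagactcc
IL1RN: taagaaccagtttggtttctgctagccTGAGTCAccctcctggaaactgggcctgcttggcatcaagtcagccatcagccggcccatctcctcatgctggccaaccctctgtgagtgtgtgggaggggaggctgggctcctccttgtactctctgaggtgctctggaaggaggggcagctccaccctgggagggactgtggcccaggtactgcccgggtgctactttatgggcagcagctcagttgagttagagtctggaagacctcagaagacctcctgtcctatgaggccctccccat
The matches start 67, 195 and 223 bases before the gene start. ANKRD1, a cardiac ankyrin-repeat protein chosen here after its values were seen, stood at 0.0954, 0 and 0.684 CPM in EV and 7.91, 11.9 and 12.3 in S14 (5.25 ± 1.11, adjusted p = 0.00354, 7.68 without EV 3).

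Adhesion molecules of the selectin and immunoglobulin kind gave 9 of 26 higher and 5 lower. CD44, the hyaluronan receptor, stood at 159, 168 and 210.1 CPM in EV and 633, 681 and 659 in S14 (1.88 ± 0.19, adjusted p = 9.20e-06), and NCAM1 rose by 2.70 ± 0.43, NECTIN3 by 3.82 ± 0.92 and ICAM1 by 1.63 ± 0.50 (2.44 without EV 3, lost without EV 1 or 2 or S14 2 or 3). EMB, a basigin relative, stood at 255, 254 and 275 CPM in EV and 63.0, 66.3 and 81.1 in S14 (-1.90 ± 0.31, adjusted p = 0.000531). CD47, the signal against engulfment, had -0.79 ± 0.17 and SELPLG, the P-selectin ligand, -1.26 ± 0.42 (-2.04 without S14 3, lost without EV 1, 2 or 3 or S14 1 or 2). Of 28 integrin-class genes 8 were higher and 3 lower. ITGB3, the beta chain of the vitronectin receptor, stood at 0.859, 0.603 and 0.760 CPM in EV and 25.7, 20.7 and 22.7 in S14 (4.95 ± 0.50, adjusted p = 1.18e-05), and ITGA3 rose by 2.00 ± 0.40, whereas ITGAL was lower as given above. CTTN, cortactin of podosomes, had 4.51 ± 0.51 (3.87 without S14 3), LSP1 2.00 ± 0.39, WAS -0.84 ± 0.13 and CNN2 -1.20 ± 0.19. The protocadherin PCDH1 (4.89 ± 0.71) was 1 of 2 higher cadherin-class genes of 39, against 7 lower.

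Coagulation and fibrinolysis genes gave 9 of 22 higher and 4 lower. F3, tissue factor, which starts coagulation, stood at 3.43, 2.88 and 6.31 CPM in EV and 166, 164 and 109 in S14 (5.11 ± 0.38, adjusted p = 1.22e-06). The tissue factor inhibitors TFPI (2.26 ± 0.46) and TFPI2 (4.63 ± 1.35, 6.38 without EV 3 and 2.85 without S14 3, lost without EV 1 or 2 or S14 3) and the transglutaminase TGM2 (3.80 ± 0.79, 2.36 without S14 3) were also higher. F13A1, the plasma transglutaminase subunit, stood at 31.4, 32.9 and 18.7 CPM in EV and 0.244, 0.103 and 0.0973 in S14 (-7.48 ± 0.58, adjusted p = 1.31e-06), and SERPINB2 (PAI-2) had -3.25 ± 0.94 (-2.58 without EV 3 and -3.87 without S14 3, lost without EV 3 or S14 1 or 2). The groups did not overlap in any of these 6 genes. Collagens were higher in 9 of 24 cases, and none was lower by edgeR (3 at an unadjusted p under 0.05, 0 by DESeq2; 2 with the block). Among them COL22A1 stood at 1.67, 1.90 and 2.32 CPM in EV and 110.1, 106 and 169 in S14 (6.02 ± 0.56, adjusted p = 5.83e-06) and COL12A1 had 3.28 ± 0.51. MMP19 rose by 3.72 ± 0.36 and TIMP3 by 4.07 ± 0.61.

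Of 23 genes of osteoclasts and cell fusion 10 were higher and 4 lower. DCSTAMP, a fusion protein, stood at 5.49, 6.27 and 14.2 CPM in EV and 61.5, 50.4 and 139 in S14 (3.27 ± 0.48, adjusted p = 0.000235, 3.86 without EV 3). For several members the rise was mostly that of S14 3. OCSTAMP stood at 0.143, 0.278 and 0.266 CPM in EV and 0.634, 0.618 and 12.1 in S14 (4.24 ± 1.20, adjusted p = 0.0207, 1.42 without S14 3, lost without EV 1, 2 or 3 or S14 3). ACP5, the tartrate-resistant phosphatase, stood at 1.05, 0.928 and 1.67 CPM in EV and 2.78, 2.27 and 25.4 in S14 (3.05 ± 0.73, adjusted p = 0.00814, 1.04 without S14 3, lost without S14 3). CTSK had 1.24 ± 0.42 (0.59 without S14 3, lost without EV 1, 2 or 3 or S14 3). CA2, the carbonic anhydrase that acidifies the resorption pit, went down, at 347, 314 and 656 CPM in EV and 109, 115 and 129 in S14 (-1.90 ± 0.55, adjusted p = 0.0233, lost without EV 3 or S14 1 or 2). Genes of striated muscle, 17 of 54 listed being expressed enough to test, were higher in 7 cases, and none was lower by edgeR (4 at an unadjusted p under 0.05, 0 by DESeq2; 4 with the block). TRDN, the muscle gene that fell as given above, is not on that list, which was written with earlier results of these data known. Besides IGFN1, TRIM54 and ATP1B4 these were MYBPC3 (0.95 ± 0.29, lost without EV 1, 2 or 3 or S14 1 or 2), XIRP1 (3.80 ± 1.08, lost without EV 1, 2 or 3 or S14 2), ACTN2 (adjusted p = 0.0217, lost without EV 1, 2 or 3 or S14 1) and MYOZ2 (3.13 ± 1.03, 3.87 without EV 3 and 2.04 without S14 3, lost without EV 1, 2 or 3 or S14 2 or 3). ATP1B4 held no EV count and 8.88, 5.35 and 31.1 CPM in S14, at least 115-fold higher when 3 counts per library are taken as the limit of EV, or 53.9-fold without S14 3. For DGKI and PRSS22, also without an EV count, the same limit gave at least 13.2-fold and 12.6-fold higher. Muscle genes near 0 in EV, such as IGFN1 and ATP1B4, passed the expression filter only by their level in other groups. The share of muscle rises is therefore no test of muscle genes as a set. Axon guidance genes gave 10 of 43 higher and 6 lower, with SEMA3C (4.24 ± 0.47, 4.87 without EV 3), SEMA7A (2.27 ± 0.38) and EFNB2 (4.27 ± 0.46, 4.95 without EV 3) among the first and SEMA3G (-1.77 ± 0.27) among the second.

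The vacuolar ATPase, the pump that acidifies lysosomes and the osteoclast surface, had 10 of 22 subunit genes higher and 1 lower (median 0.42; 12 and 3 with the block; pair medians 0.19, 0.42 and 0.64). ATP6V1B2 stood at 272, 276 and 312 CPM in EV and 734, 729 and 684 in S14 (1.32 ± 0.12, adjusted p = 4.16e-06) and ATP6V1H rose by 1.54 ± 0.14. ATP6V0D2, the isoform of osteoclasts, stood at 0.954, 2.13 and 1.14 CPM in EV and 30.7, 35.2 and 33.7 in S14 (4.56 ± 0.77, adjusted p = 0.000771). ATP6V1C2, a tissue-restricted isoform, fell, at 99.0, 89.5 and 69.1 CPM in EV and 12.0, 10.7 and 18.2 in S14 (-2.66 ± 0.46, adjusted p = 0.000903). Lysosomal hydrolases were split, 8 of 45 higher and 7 lower, or 14 and 14 with the block. CTSD stood at 1091, 1078 and 1293 CPM in EV and 2116, 2121 and 2192 in S14 (0.89 ± 0.18, adjusted p = 0.00279), PSAP had 0.72 ± 0.14 and the cholesterol exporter NPC1 1.30 ± 0.18. Of 37 autophagy genes 6 were higher and 2 lower, among them the cargo receptors OPTN (2.24 ± 0.17) and SQSTM1 (1.75 ± 0.24).

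Fatty acid and lipid droplet genes were higher in 12 of 38 cases and lower in 2 (median 0.46; 19 and 2 with the block). PLIN2, the coat protein of lipid droplets, stood at 418, 520.1 and 365 CPM in EV and 3677, 4485 and 546 in S14 (2.74 ± 0.56, adjusted p = 0.00275), so that S14 3 was only slightly above EV. PLIN3 stood at 81.8, 82.5 and 90.6 CPM in EV and 152, 166 and 162 in S14 (0.91 ± 0.19, adjusted p = 0.00279), PLIN4 rose by 3.57 ± 0.55 (2.97 without S14 3), MGLL by 1.70 ± 0.37, HILPDA by 1.53 ± 0.36 and DGAT2 by 1.54 ± 0.44 (lost without EV 1 or 2 or S14 3), and PDK4, which spares glucose, had -2.72 ± 0.47. In iron handling the uptake receptor TFRC (0.59 ± 0.17, lost without EV 1 or 2 or S14 3), the transporter SLC11A2 (0.67 ± 0.16) and HMOX1, which frees iron from haem (1.22 ± 0.37, lost without EV 1, 2 or 3 or S14 1 or 2), were higher beside ferritin, and the exporter SLC40A1, at 4.39, 4.04 and 2.39 CPM in EV and 1.07, 0.978 and 1.07 in S14, was lower (-1.78 ± 0.41), as was the ferrireductase STEAP3 (-1.20 ± 0.11).

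Of 24 aldehyde dehydrogenases and aldo-keto reductases 1 was higher and 6 lower (median -0.36), of 28 cytochrome P450 genes 4 were higher and 3 lower, and of 35 genes of the pentose phosphate pathway and nucleotide synthesis 7 were higher and 3 lower. ALDH1A2, which makes retinoic acid (chr15:57953424-58497866), stood at 8.25, 10.4 and 10.8 CPM in EV and 268, 265 and 261 in S14 (4.75 ± 0.45, adjusted p = 7.32e-06), and the S14 libraries lay close together. CYP27B1, which activates vitamin D, rose by 3.50 ± 0.53, and CYP19A1, aromatase, stood at 82.9, 100.3 and 115 CPM in EV and 472, 414 and 469 in S14 (2.18 ± 0.27, adjusted p = 6.16e-05). UPP1, uridine phosphorylase, stood at 18.4, 18.8 and 29.4 CPM in EV and 335, 347 and 376 in S14 (3.99 ± 0.38, adjusted p = 7.32e-06). NT5E, which makes adenosine outside the cell, stood at 8.11, 8.03 and 9.84 CPM in EV and 170.1, 185 and 172 in S14 (4.34 ± 0.41, adjusted p = 7.23e-06). TYMP, thymidine phosphorylase, rose by 1.75 ± 0.24, and SAMHD1, which degrades dNTPs, stood at 673, 662 and 675 CPM in EV and 258, 217 and 299.7 in S14 (-1.38 ± 0.18, adjusted p = 9.24e-05). Glutamine synthetase (GLUL, 1.44 ± 0.29), SAT1 (1.54 ± 0.32) and IL4I1 (1.79 ± 0.53, lost without EV 1, 2 or 3 or S14 1 or 2) were higher and QPRT (-1.02 ± 0.13) lower. Of 28 tricarboxylic acid cycle genes none passed edgeR's test (5 higher and 1 lower at an unadjusted p under 0.05, 1 higher by DESeq2), against 6 higher and 3 lower with the block. Eicosanoid genes gave 5 of 27 higher and 7 lower, with CYSLTR1, a leukotriene receptor, at 55.6, 52.9 and 42.3 CPM in EV and 5.17, 4.53 and 9.25 in S14 (-2.99 ± 0.26, adjusted p = 2.78e-06), ALOX15 at -3.59 ± 0.71 and ALOX5 at 0.89 ± 0.16.

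Transporters, channels and receptors were counted by symbol, beside 11.1% higher and 8.96% lower over all genes tested. Of 42 potassium channel genes 9 were higher and 6 lower, and of 54 calcium, sodium, chloride and TRP channel genes 4 were higher and 8 lower. Of 268 solute carriers 47 were higher and 26 lower, with the glutamate transporter SLC1A2 at 5.31 ± 0.77 and the zinc exporter SLC30A3 at 4.30 ± 0.50. ABC transporters gave 6 of 41 higher and 7 lower, with ABCG2 (3.39 ± 0.42) and ABCC3 (2.33 ± 0.33) among the first. Of 16 purinergic and adenosine receptors 1 was higher and 5 lower, P2RY8 at -1.998 ± 0.34. Of 63 orphan and adhesion G protein-coupled receptors 9 were higher and 14 lower, including GPR34 and its neighbour GPR82 (-3.51 ± 0.42, -4.57 without S14 3), which both lie inside another gene. Nuclear receptors were higher in 6 of 30 cases and lower in 1. Genes of sialylated glycans, the ligands of Siglecs, gave 5 of 29 higher and 6 lower. GCNT1, a core 2 branching enzyme, had -2.05 ± 0.27, ST8SIA5 -1.94 ± 0.33, ST6GALNAC4 1.35 ± 0.26 and ST6GALNAC6 1.95 ± 0.41.

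**Figure D3:**
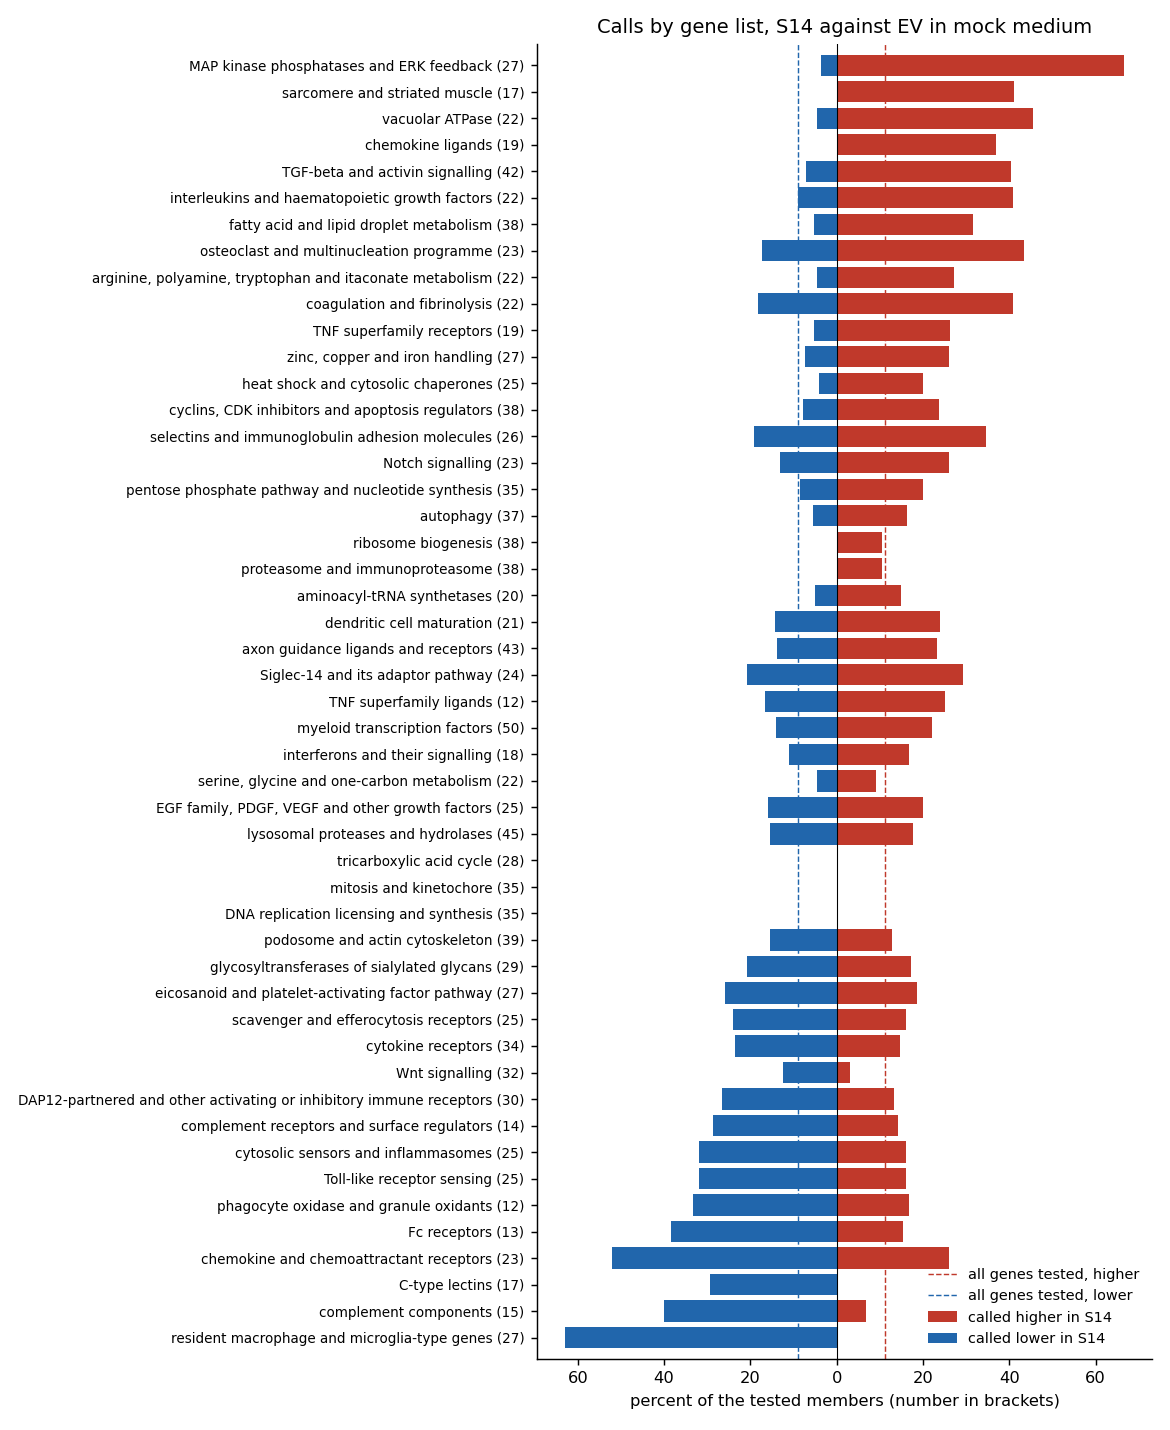
Percent of the tested members of 49 gene lists called higher (red, to the right) and lower (blue, to the left) in S14 against EV in mock medium, with the number tested in brackets and dashed lines at 11.1% and 8.96%, the shares over all genes tested. ERK feedback genes stand at the top with 18 of 27 higher and resident macrophage genes at the bottom with 17 of 27 lower. The lists were written with earlier results of these data known.

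Some processes shifted by small amounts that the block called and the model without it mostly did not. Without the block, 10.5% of proteasome, 10.5% of ribosome biogenesis and 7.32% of mitochondrial ribosomal protein genes were higher. Over all genes tested 11.1% were higher, so those counts are no excess. With the block 18.7% of all genes were higher and 18.6% lower. Of 38 proteasome genes 4 were higher, or 25 with the block, and none was lower by edgeR (0 at an unadjusted p under 0.05, 0 by DESeq2; median 0.37), with PSMD8 at 1.25 ± 0.21, PSMA3 at 0.93 ± 0.31 (lost without EV 1 or 2 or S14 1, 2 or 3), PSMA6 at 0.67 ± 0.22 (lost without EV 1 or 2 or S14 1, 2 or 3) and PSMD3 at 0.46 ± 0.15 (lost without EV 1, 2 or 3 or S14 1 or 2). Of 38 ribosome biogenesis genes 4 were higher, or 22 with the block, and none was lower by edgeR (0 at an unadjusted p under 0.05, 0 by DESeq2). They were RRP12 at 1.21 ± 0.30, PES1 at 0.78 ± 0.22 (lost without EV 1 or 2 or S14 1 or 2), DDX21 at 1.25 ± 0.38 (lost without EV 1 or 2 or S14 1 or 2) and RRN3 at 0.55 ± 0.17 (lost without EV 1 or 2 or S14 1 or 2). Their pair medians were 0.64, 0.60 and 0.15. Of 25 heat shock and cytosolic chaperone genes 5 were higher and 1 lower, or 16 and 1 with the block. STIP1, the HSP70 to HSP90 adaptor, stood at 206, 206 and 214 CPM in EV and 803, 811 and 747 in S14 (1.91 ± 0.15, adjusted p = 1.38e-06), and BAG3 rose by 1.71 ± 0.33. Mitochondrial ribosomal protein genes were higher in 6 of 82 cases, or 25 with the block. Of 82 cytosolic ribosomal protein genes 3 were lower (median -0.25), or 3 higher and 10 lower with the block, shares under those over all genes. In replicates 1 and 2 alone 6 were higher and 43 lower, where 28.0% of all genes were higher and 27.7% lower. Only 14 of the 82 estimates lay above 0, and the pair medians were -0.31, -0.27 and -0.17.

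Genes of DNA replication and mitosis differed more in 2 of the 3 pairs of libraries than in the third. Of 35 replication genes none passed edgeR's test in either direction (0 higher and 2 lower at an unadjusted p under 0.05, none by DESeq2), and 30 were lower with the block (median -0.89). The pair medians were -2.09, -1.88 and -0.07. Of 35 mitosis genes none passed either (0 higher and 1 lower at an unadjusted p under 0.05, none by DESeq2), and 34 were lower with the block (median -1.31; pairs -3.01, -3.02 and -0.74). The mitotic kinase activator CDC20 stood at 88.9, 74.8 and 313 CPM in EV and 8.35, 8.19 and 136 in S14, TOP2A, which untangles chromosomes, at 108, 95.8 and 258 CPM in EV and 7.52, 5.30 and 119 in S14, and the helicase subunit MCM6 at 73.5, 64.3 and 78.9 CPM in EV and 14.7, 16.3 and 74.95 in S14. In each of these genes S14 libraries 1 and 2 lay far under every EV library, and S14 3 lay inside the EV range. The mitochondrially encoded mRNA of S14 1 and 2, 1.59% and 1.49% of counts, was also the lowest, and its part in these values was not tested. Cyclin D1 (CCND1) rose by 2.27 ± 0.35, CCND2 by 2.22 ± 0.42, the inhibitor CDKN1A by 0.84 ± 0.23 (lost without EV 1 or 2) and the survival protein BCL2A1 by 2.64 ± 0.41 (3.26 without EV 3). The letters TTTNNCGC, bound by E2F factors, were found on either strand in 62.5% of 32 replication promoters against 10.1% of all 11936, and the box CCAAT in 79.3% of 29 mitosis promoters against 36.2%. These shares cover the lists as named, whether or not a member moved, so they say nothing of this contrast. Among genes called higher and lower, the E2F letters were in 9.08% and 7.17% of promoters and CCAAT in 32.2% and 36.9%. The MCM6 promoter (chr2:135876394-135876693, minus strand) is shown, with E2F matches in capitals, since it holds 4 that overlap in pairs.
MCM6: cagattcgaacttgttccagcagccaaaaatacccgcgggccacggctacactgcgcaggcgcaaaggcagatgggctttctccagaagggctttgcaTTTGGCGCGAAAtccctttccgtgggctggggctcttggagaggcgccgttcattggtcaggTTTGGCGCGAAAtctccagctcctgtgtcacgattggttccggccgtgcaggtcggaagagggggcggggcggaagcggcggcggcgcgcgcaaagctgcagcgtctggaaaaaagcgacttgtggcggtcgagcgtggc
It is an example of the share of replication promoters given above and not a site known to be used in these cells.

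**Figure D4:**
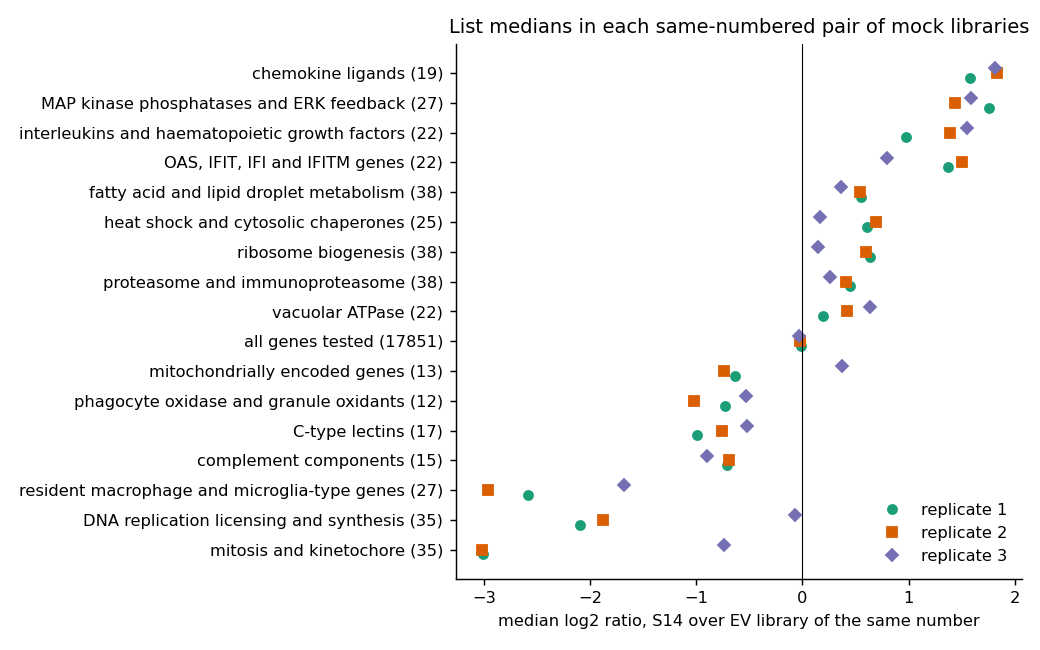
Median log2 ratio of S14 over EV within each same-numbered pair of mock libraries (horizontal axis) for 16 gene groups and for all genes tested, with the number of genes in brackets. Replication and mitosis medians lie at -1.88 to -3.02 in replicates 1 and 2 and at -0.07 and -0.74 in replicate 3, whereas ERK feedback and chemokine medians lie above 1 in all 3.

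Calls were counted by gene class and along the genome. Among 13378 protein-coding genes 1782 (13.3%) were higher and 1187 (8.87%) lower, with a median of 0.05. Of 1053 long intergenic RNAs 62 (5.89%) were higher and 141 (13.4%) lower (median -0.37). Of 1069 antisense RNAs 50 (4.68%) were higher and 111 (10.4%) lower (median -0.34), and of 1282 pseudogenes 42 and 84. The counting's strand setting is not known, so reads of antisense RNAs may come from their partners. Some non-coding RNAs rose, PAX8-AS1 to 75.7, 67.8 and 66.0 CPM from 9.11, 9.61 and 7.41 (3.00 ± 0.38, adjusted p = 7.36e-05) and LINC01050 from 3 counts over the EV libraries to 4.29, 3.71 and 15.8 CPM (adjusted p = 1.82e-05). Of 512 ZNF-named zinc finger genes 23 were higher and 47 lower (34 and 98 with the block). The lower counts were near the shares over all genes tested, 8.96% and 18.6% with the block. The higher counts were under theirs, 11.1% and 18.7%. In replicates 1 and 2 alone 122 were higher and 127 lower. The pair medians were 0.03, 0.01 and -0.3, so only the pair of replicate 3 had a median clearly below 0.

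Chromosome 10 had the highest share of rises, 111 of 645 genes (17.2%, median 0.23), against 36 lower. Among windows of 40 neighbouring tested genes, the most lower genes, 14 each, were at chrX:276322-12890380 (1 higher, median -0.64) and chr1:235661041-246668584 (5 higher, median -0.40). Next, chr19:19788755-24129961, a cluster of zinc finger repressor genes, held 13 lower genes (median -0.77). ZNF93, which silences a family of LINE elements, stood there at 41.4, 37.9 and 43.9 CPM in EV and 17.2, 18.5 and 23.9 in S14 (-1.05 ± 0.16, adjusted p = 0.000374), and ZNF85 had -0.81 ± 0.19. These zinc finger genes resemble each other, so some of their reads may be shared. The most higher genes were in windows at chr10:103367967-113917194 (13 higher, 1 lower, median 0.45), chr8:102239394-116876868 (12 higher, 0 lower, median 0.65) and chrX:153599315-154821007 (12 higher, 1 lower, median 0.19).

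Markers of other cell types were summed as a check. Epithelial markers, 14 of 20 with a count in EV and 11 in S14, came to 14.2 to 22.7 CPM in EV and 8.61 to 11.4 in S14, with EPCAM, KRT19, KRT20 and CEACAM5 at 0 in both. Fibroblast markers, 8 of 12 with a count in each line, came to 4.15 to 7.14 CPM in EV and 8.69 to 44.1 in S14, with COL1A2, POSTN and COL5A1 at 0 in both. FAP stood at 1.002, 1.49 and 2.66 CPM in EV and 4.78, 4.79 and 37.3 in S14 (3.17 ± 0.90, adjusted p = 0.0215, 1.46 without S14 3, lost without EV 1 or 2 or S14 3). T and NK cell markers, 12 of 16 with a count in EV and 9 in S14, came to 26.9 to 29.1 CPM in EV and 30.4 to 44.4 in S14, with CD3D and CD3E at 0, and B cell markers, 6 of 12 in EV and 5 in S14, to 3.50 to 5.96 CPM in EV and 7.06 to 10.1 in S14, with MS4A1, IGHM and IGKC at 0. Erythroid and megakaryocyte markers, 7 of 15 in each line, came to 1.05 to 1.44 CPM in EV and 1.44 to 5.01 in S14. Granule and mast cell genes, 13 of 16 in each line, came to 572 to 655 CPM in EV and 173 to 378 in S14, and AZU1 among them stood at 329, 311 and 244 CPM in EV and 149, 189 and 74.2 in S14 (adjusted p = 0.0521). KIT had -2.06 ± 0.65 (lost without EV 1, 2 or 3 or S14 1 or 2) and PAX5 1.78 ± 0.49 (lost without EV 1 or 3 or S14 1 or 2). The part of any other cell type in the results above was not tested.

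To see whether these basal differences were also found in tumour medium, the same lines were compared in SW620-conditioned medium, which shares no library with the mock comparison. There 1990 genes (11.1%) were called, 1329 higher (7.44%) and 661 lower (3.70%). Of the 1976 genes higher in mock medium 1052 (53.2%) were again called higher and 0 lower, and 1926 (97.5%) had a higher estimate. Of the 1599 lower in mock medium 532 (33.3%) were again called lower and 0 higher, and 1554 (97.2%) had a lower estimate. ERK feedback genes were higher in 15 of 27 cases and resident macrophage genes lower in 15 of 27 there. The medians of the resident macrophage genes were -2.34 in mock and -1.26 in conditioned medium. The log2 fold change in conditioned medium was -0.97 ± 0.21 for ITGAL (-1.80 in mock), -0.75 ± 0.32 for CD14 (-1.58 in mock), 8.40 ± 0.58 for IGFN1 (8.34 in mock) and 6.54 ± 0.64 for CSF1 (6.43 in mock). The test of the difference between media called 0 genes by edgeR (812, 4.55%, at an unadjusted p under 0.05), 4 by DESeq2 (0.0225%) and 4328 in replicates 1 and 2 alone (24.3%). In the S5 line, which shares the EV libraries, mean mock levels were 368 CPM for CD14, 88.6 for IL1RN, 3.80 for CSF1, 118 for C1QA and 774 for CYBB, beside EV means of 615, 92.0, 6.32, 83.1 and 929 and S14 means of 206, 2888, 547, 2.43 and 219.

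**Figure D5:**
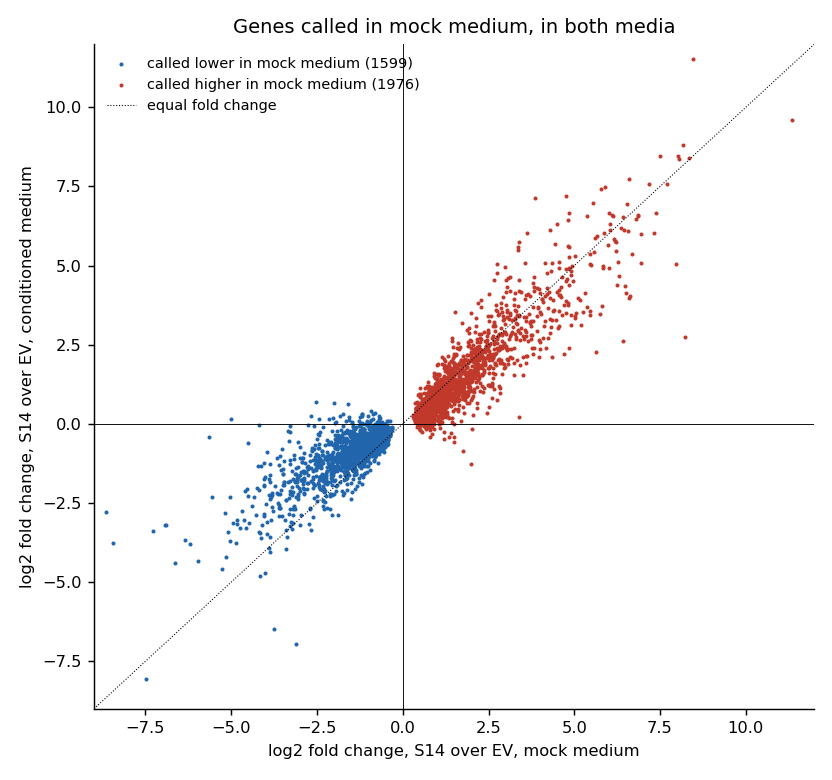
Log2 fold change of S14 over EV in conditioned medium (vertical axis) against that in mock medium (horizontal axis) for the 3575 genes called in mock medium, each point 1 gene, with the line of equal change dotted. Of the 1976 higher genes 1926 lie above 0 on the vertical axis and of the 1599 lower genes 1554 lie below it.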

How the data were processed

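Macrophage-like THP-1 lines were profiled by polyadenylated RNA sequencing from a stranded kit, per the labels' protocols. The deposited tables hold raw counts per gene, which the authors made after alignment with HISAT2 to GRCh38, per the submitters' processing notes. Not given in the sources used here were the HISAT2 version, the counting tool, its annotation and its strand setting. TPM values, deposited by the authors beside the counts, are relative to transcript length and library total and entered no test.

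Counts were tested with edgeR 4.0.16 in R 4.3.3 (TMM scaling, filterByExpr by group, robust quasi-likelihood fit, prior count 2) over all 18 libraries with 1 mean per line and medium, the spread being shared by all groups. P-values were adjusted by the Benjamini-Hochberg method over 17851 genes and called at 0.05. CPM are scaled by the TMM factors, which were 0.911 to 0.934 in S14 and 1.03 to 1.07 in EV. On simulated counts of 17358 genes for this comparison, 37% of 100 genes changed by 1 on the log2 scale and 97% of 100 changed by 2 were recovered, with 7 false calls. The simulation held no replicate 3 effect and changed no gene of low counts, so these shares need not hold for the real libraries. Replicate numbers were taken as pairing the libraries, since same-numbered EV and S14 mock libraries deviated together with correlations of 0.278 to 0.505, and all 45 same-numbered pairs of libraries with 0.155 to 0.794. Replicates 1 and 2 correlated as much with each other's number (0.283 and 0.366) as with their own, and only replicate 3 stood apart by number. Alternatives were the replicate block, the 6 mock libraries alone, replicates 1 and 2 alone, DESeq2 1.42.0, 2 other scalings, 2 other filters and leaving out each library.

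Genes were named by rule. The 12 largest changes each way at 10 CPM or more and the 8 largest in CPM each way were taken first. Both sets were limited to called genes with a symbol whose CPM did not overlap between lines. Next came up to 4 called members per list by p and up to 2 called members per symbol class by fold. Up to 2 abundant members of a list without calls were added, and SIGLEC14, SIGLEC5 and TYROBP. Further list members, such as CXCR4, LYZ, ACP5, SYK and TREM2, the zinc finger genes ZNF93 and ZNF85, and IFIT3, IFI44L and ANKRD1 with their promoters, were chosen after their values were seen. The members and the lists were chosen with earlier results of these data known. Positions and gene types come from GENCODE 29 on GRCh38, which held 58516 of the 60623 identifiers (96.5%), and promoters from RefSeq on GRCh38.p14.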

Additional observations from a re-analysis of the deposited data

How the results depend on the processing

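With the replicate block 6672 genes were called in mock medium (3346 higher, 3326 lower), and in replicates 1 and 2 alone 9921 (4988 higher, 4933 lower). The 6 mock libraries alone gave 2552, or 4258 with the block, DESeq2 4312, no filter 2706 and upper-quartile scaling 3630. Leaving out each replicate in turn gave 2264 to 4939 genes in all, 1312 to 2499 higher and 895 to 2440 lower, the highest counts without S14 replicate 3. In conditioned medium the block gave 4207 genes in place of 1990, replicates 1 and 2 alone 7825, and leaving out each replicate 1164 to 2114. For the difference between media, where edgeR called 0, DESeq2 called 4, replicates 1 and 2 alone 4328, and leaving out each replicate 0 to 107. The cause of these shifts was not tested. Of the 397 called genes among the 413 named, 296 were also called without each mock library in turn and 101 lost the call at least once. ITGA2B was the only named gene to change sign, at -0.14 without S14 replicate 1, with up to 0.91 without S14 replicate 3. Under the 9 alternatives that keep all 3 replicates or only replicates 1 and 2, none of the named genes that could be fitted, 402 to 413, changed sign. Below 1 CPM the median SE was 0.632.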
